A study of Mus musculus with 4 samples.

Results

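The 9 Pax genes (Pax1 to Pax9) were followed in mouse embryonic stem cells (ESCs) by RNA-seq. The members are the rows listed under these 9 symbols among the 28250 genes for which the authors deposited an expression value. The cells were TBV2, a feeder-dependent ESC line, treated with LIF present. They received solvent in 2 libraries and 5 µM MS-275, an inhibitor of class I histone deacetylases, in the other 2, each for 24 h. Whether the sequenced cultures held feeder cells is not stated. The labels name no allele or transgene, and which vehicle the controls received was not resolved. The study used these profiles to ask how MS-275 changes the genes ESCs express. Separate cultures are not stated for the replicates, so p-values measure only the spread between these libraries.

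Pax proteins are transcription factors that bind DNA through a paired domain. Pax3, Pax4, Pax6 and Pax7 also carry a complete homeodomain, which Pax1 and Pax9 lack and of which Pax2, Pax5 and Pax8 keep a part. The genes are switched on in the embryo as tissues are laid down: Pax1 and Pax9 in the sclerotome and pharyngeal pouches, Pax2, Pax5 and Pax8 in the kidney, midbrain-hindbrain boundary, B cells and thyroid, Pax3 and Pax7 in muscle precursors and neural crest, and Pax4 and Pax6 in the endocrine pancreas, eye and brain. Undifferentiated ESCs are not known for any of these programmes.

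The deposited value is a normalized signal per gene whose formula is not given in the sources used here. The markers of the labelled cells were present, with mean values over the 4 libraries of 1.11 for Pou5f1, 1.89 for Sox2 and 1.79 for Nanog. The deposited alignments numbered 9785619 to 23467935 per library, at 9122347 to 10973569 distinct positions. In replicate 1 of both conditions over 53% of the alignments repeated a position, and in replicate 2 none did, so distinct positions were counted for the Pax exons. Whether value and alignment files match by number was not resolved. The correlation across genes of log2 value with log2 alignments per exon length (Pearson's r, genes not being independent) was 0.873 to 0.905 within a sample and 0.956 to 0.966 when replicates 1 and 2 of a condition were crossed, over 9392 to 10816 genes. Without division by length, the crossed r was again higher for the values of replicate 2 (0.914 against 0.779 with solvent, 0.911 against 0.735 with MS-275) but lower for those of replicate 1 (0.872 against 0.896 and 0.874 against 0.900). The replicate number given with a position is that of the sample it was deposited with, and an exchange in both conditions would leave the comparison of the groups as it is.

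The sequences before the start sites of 4 genes are shown because Pax9 and Pax1 were near 0 with solvent and higher with MS-275, while Pax8 and Pax6 had the highest values of the family. They are the 250 bases before the RefSeq start (GRCm38.p6 table), matched to a single place each on mm9, with no exon of GENCODE M1 in them, and capitals mark a GC box (GGGCGG or its complement CCGCCC).
Pax1: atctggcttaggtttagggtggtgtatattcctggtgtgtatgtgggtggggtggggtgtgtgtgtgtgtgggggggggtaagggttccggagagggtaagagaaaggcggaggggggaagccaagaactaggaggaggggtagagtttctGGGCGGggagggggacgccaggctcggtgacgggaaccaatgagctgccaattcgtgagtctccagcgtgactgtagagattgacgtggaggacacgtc
Pax9: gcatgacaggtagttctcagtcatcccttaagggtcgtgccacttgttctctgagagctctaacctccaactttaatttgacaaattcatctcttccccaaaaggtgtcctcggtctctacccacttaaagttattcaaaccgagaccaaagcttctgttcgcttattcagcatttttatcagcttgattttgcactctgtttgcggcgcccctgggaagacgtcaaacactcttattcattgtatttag
Pax8: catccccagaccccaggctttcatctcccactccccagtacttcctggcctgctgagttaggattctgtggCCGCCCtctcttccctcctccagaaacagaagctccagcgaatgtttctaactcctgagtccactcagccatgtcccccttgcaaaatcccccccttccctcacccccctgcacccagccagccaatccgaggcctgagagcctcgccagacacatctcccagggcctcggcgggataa
Pax6: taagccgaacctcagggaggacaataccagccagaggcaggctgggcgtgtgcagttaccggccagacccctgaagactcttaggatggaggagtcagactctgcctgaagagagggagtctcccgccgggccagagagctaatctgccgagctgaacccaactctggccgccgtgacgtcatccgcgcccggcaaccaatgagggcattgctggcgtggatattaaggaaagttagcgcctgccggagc
On mm9 these lie at chr2:147190480-147190729 on the plus strand (Pax1), chr12:57796208-57796457 on the plus strand (Pax9), chr2:24331120-24331369 on the minus strand (Pax8) and chr2:105508803-105509052 on the plus strand (the upstream start of Pax6). In GENCODE M1 the genes Pax1 and Pax9 start further upstream, at chr2:147187661 and chr12:57792754, so their stretches lie between exons inside the annotated gene. The Pax8 and Pax6 stretches lie directly before the annotated gene. The Pax1 and Pax8 stretches each held 1 GC box, and the Pax9 and Pax6 stretches held none. Over the 10 entries for 7 Pax genes, 6 held a GC box, against 32.7% of 32851 promoters of this length, read on both strands. None of the 10 held TATAAA or its complement, which 12.4% of all promoters held, and 3 held CCAAT or its complement, against 33.8%. CG dinucleotides numbered 10 before Pax1, 7 before Pax9, 6 before Pax8 and 15 before Pax6, and the median promoter had 6. The GC content was 43.6% before Pax9 and 58.8% before Pax1, the 2 members of 1 subfamily. Pax3 and Pax4 had no entry.

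In solvent-treated ESCs, the listed values of Pax6 and Pax8 stood above those of the other members. Their means were 0.0352 ± 0.0098 and 0.0228 ± 0.0166 (SD, n = 2), and their ranges overlapped. Pax5, Pax7, Pax2 and Pax9 followed with means of 0.00217, 0.00201, 0.00138 and 0.000585, each overlapping the next in this order, and the lowest Pax8 value (0.0111) was above the highest of them (0.0035). Pax1 had a mean of 0.00014, and Pax3 and Pax4 were listed at 0 in both libraries. With MS-275, Pax8 (0.0372 ± 0.0287) and Pax6 (0.0315 ± 0.00795) again led with overlapping ranges, and Pax9 (0.00765 ± 0.00126) and Pax7 (0.00591 ± 0.00419) came next, also overlapping each other. Pax3 and Pax1 followed, and Pax5, Pax2 and Pax4 were under 0.001 in both MS-275 libraries. Even Pax6 was a gene of ordinary level, with 58.4% to 63.2% of all listed genes below it in a library.

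**Figure D1:**
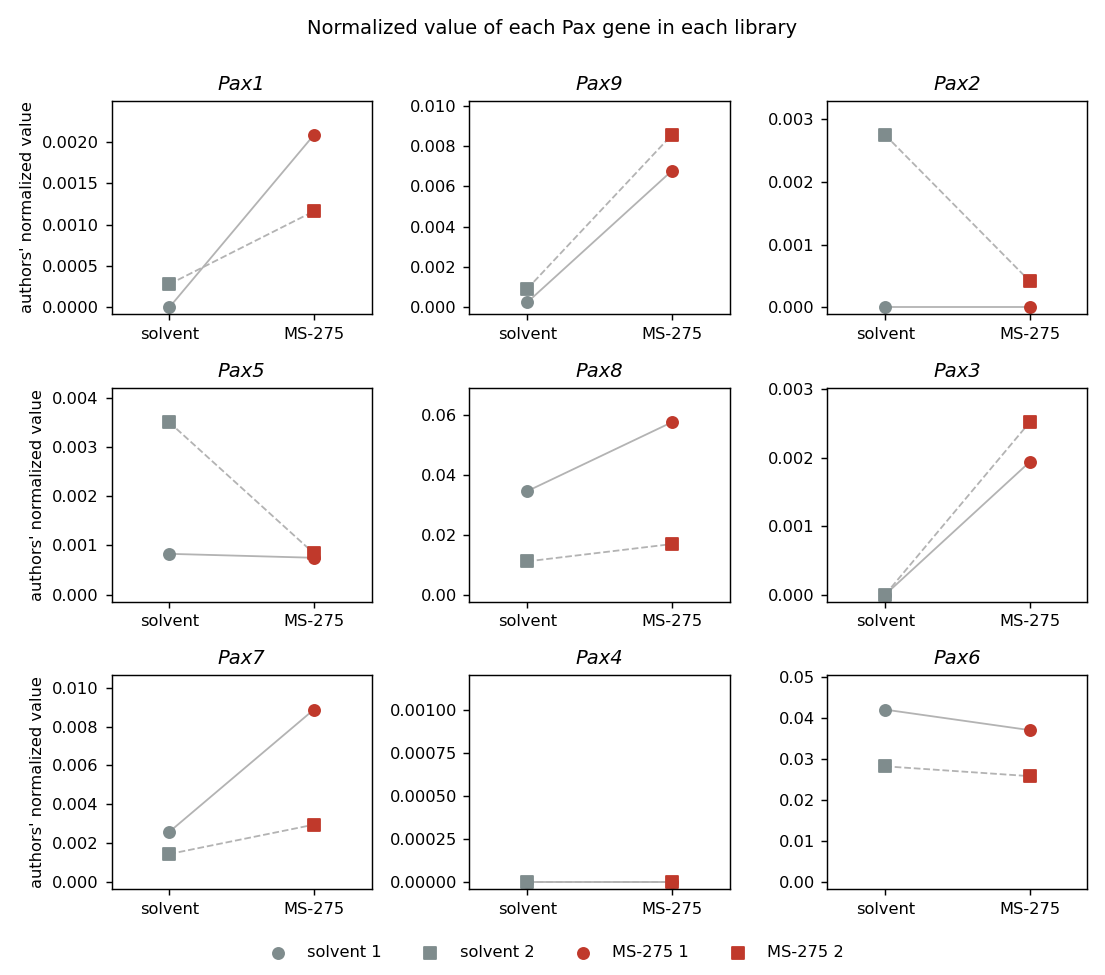
Authors' normalized value (vertical axis, a linear scale of its own in each panel) of each Pax gene in the solvent libraries (grey) and the MS-275 libraries (red); circles and solid lines are replicate 1, squares and dashed lines replicate 2. The MS-275 points lie above both solvent points for Pax1, Pax9, Pax3 and Pax7, the groups overlap for Pax2, Pax5, Pax8 and Pax6, and Pax4 is at 0.

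In 4 of 9 Pax genes both MS-275 values lay above both solvent values, and in 0 both lay below. Over all 28250 genes the shares were 26.1% above and 9.09% below. At least 2-fold higher in both pairs, with values under 0.001 set to 0.001, were Pax7 and Pax9 (2 of 9, against 11.5% of all genes), and 0 were 2-fold lower (2.04% of all genes). With limma on log2(value + 0.005) and no replicate block, 0 of the 6 Pax genes tested passed an adjusted p of 0.05 in either direction, where 0.00492% of the 20336 genes tested passed as higher and 0% as lower. At an unadjusted p under 0.05 there were 2, Pax3 and Pax9, beside 2974 higher and 564 lower genes of all tested, and limma-voom on distinct positions without a block also called 0 of 5 Pax genes, where 11.4% of all genes were called higher and 7% lower. With the replicate number as a block, which the authors' headers allow since they call replicate 1 of both conditions old, Pax9 alone passed, against 21% of genes higher and 6.46% lower. Pax1, Pax3 and Pax9 reached the minimum value of 0.001 in MS-275 libraries alone, so they could enter the test only if they were higher there. In RNA from a whole culture, fewer cells of a type and less RNA per cell cannot be told apart.

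Pax9, which is needed for the pharyngeal pouches, teeth and limbs, was the single member whose values passed on the log2(value + 0.005) scale, and that only with the replicate block. Its difference on that scale was the largest of the 6 Pax genes tested. Its values were 0.00025 and 0.00092 with solvent and 0.00676 and 0.00854 with MS-275 (replicates 1 and 2 each). Both treated libraries stood well above both controls. On the log2(value + 0.005) scale they differed by 1.18 ± 0.24 (SE, n = 2 per group), and limma gave an adjusted p of 0.00166 with the replicate block and 0.0741 without it. Both solvent values were under the minimum of 0.001, so Pax9 could enter this test only if it was higher with MS-275. With all 28250 listed genes in the fit and the block, its adjusted p was 0.259, and 0 genes in all were called.

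The alignments on Pax9 (chr12:57792754-57813809, plus strand, mm9) gave the same direction. Its exons held 8 and 1 distinct positions with solvent and 54 and 23 with MS-275. Per total positions of a group this was 8.86-fold more with MS-275 (95% exact interval 4.43 to 20.1, which covers counting error only). Most were in the last exon, at 5 and 1 against 40 and 15, and the coding exons held 2 and 0 against 6 and 5. The introns moved the same way, with 3 and 2 positions against 11 and 9, a ratio of 4.14 (1.51 to 14.1). Limma-voom over exon parts that belong to 1 gene alone gave a log2 fold change of 3.05 ± 0.54 (SE), with an adjusted p of 0.000167 with the block and 0.0621 without it, beside 23.8% and 11.9% of all genes called higher in those fits (21% and 7.57% lower). The 3′ end of Pax9 runs into an exon of Slc25a21 on the other strand, which accounted for 2 of the Pax9 exon positions.

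Pax1, the close relative of Pax9 that shapes the vertebral column and thymus, was seen at far fewer positions. Its values were 0 and 0.00028 with solvent and 0.00208 and 0.00116 with MS-275, so that the groups did not overlap. The log2 fold change of 0.36 ± 0.20 (SE) had an adjusted p of 0.195 with the block and 0.332 without it. On its exons (chr2:147187661-147219031, plus strand) lay 1 and 0 positions with solvent and 7 and 6 with MS-275. The ratio of 13.5 came with an exact interval of 2.02 to 572, and only 1 solvent and 2 MS-275 positions were coding. Pax1 had too few positions for the voom fit.

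Pax3, which acts in the dorsal neural tube, neural crest and muscle precursors, was listed at 0 in both solvent libraries. With MS-275 its values were 0.00194 and 0.00252. No ratio can be formed from the values, and the adjusted p of the fitted difference was 0.0609 with the block and 0.154 without it. With the block it was 0.0221 with a pseudocount of 0.001 and 0.145 with a pseudocount of 0.02. The log2 fold changes in these fits were 1.69 and 0.15, because with solvent at 0 the pseudocount sets the size of the difference. Pax3 entered these fits through the MS-275 libraries alone, so it could be called there only as higher. Its exons (chr1:78097842-78193709, minus strand) held 0 and 0 positions with solvent against 16 and 5 with MS-275, which is at least 7.25-fold more when the solvent group is set at 3 positions. Both MS-275 libraries had coding positions (4 and 3) and last-exon positions (10 and 2). The introns held 3 and 1 positions with solvent and 13 and 3 with MS-275.

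Pax7, which marks the satellite cells of muscle, was higher with MS-275 on its last exon and lower in the sequence beyond it. Its values were 0.00258 and 0.00144 with solvent and 0.00887 and 0.00295 with MS-275. Both MS-275 values were above both controls, though replicate 2 only narrowly. The difference of 0.59 ± 0.25 (SE, log2 scale) had an adjusted p of 0.0917 with the block and 0.438 without it, and was 0.19 without MS-275 replicate 1 and 0.99 without MS-275 replicate 2. Exon positions (chr4:139292977-139389445, minus strand) numbered 12 and 9 with solvent and 20 and 32 with MS-275, a ratio of 2.57 (1.52 to 4.48). Limma-voom on all exon positions gave 1.17 ± 0.47 on the log2 scale and an adjusted p of 0.0370 with the block, where 24.1% of all genes were called higher and 21.4% lower, against 0.138 without it.

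Nearly all of these Pax7 positions were in the last exon, with 12 and 9 against 17 and 30, and the coding exons held 1 and 0 against 4 and 2. In the 5 kb after the annotated end, in contrast, there were 42 and 21 positions with solvent and 3 and 7 with MS-275, a ratio of 0.164 (0.0752 to 0.323). Introns held 28 and 16 against 21 and 18, with a ratio of 0.918 (0.581 to 1.45) that includes 1. The libraries were counted without strand, so transcripts from either strand enter these numbers.

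Pax8, which drives thyroid and kidney development, had values of 0.0346 and 0.0111 with solvent and 0.0575 and 0.0169 with MS-275. It was higher with MS-275 in both pairs, but the replicates of a group differed by more than the pairs did, so the groups overlapped. The log2 fold change of 0.55 ± 0.30 (SE) had an adjusted p of 0.191 with the block and 0.826 without it. After quantile normalization it was 0.12. Its exons (chr2:24276071-24331119, minus strand) held 40 and 51 positions with solvent against 62 and 92 with MS-275, a ratio of 1.75 (1.34 to 2.30). That interval covers counting error only, not the spread between libraries. Limma-voom with the block gave 0.64 ± 0.28 with an adjusted p of 0.0582, against 0.212 without it. The last exon carried 25 and 46 against 40 and 76, and the coding exons 12 and 6 against 21 and 15.

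Pax2, which acts in the kidney, optic stalk and midbrain-hindbrain boundary, had no rise that could be detected. Its values were 0 and 0.00275 with solvent and 0 and 0.00042 with MS-275, too low for the test. Exon positions (chr19:44830539-44912758, plus strand) numbered 14 and 4 against 14 and 6, a ratio of 1.15 (0.578 to 2.31), and limma-voom with the block gave a log2 fold change of 0.16 ± 0.56 and an adjusted p of 0.841. The coding exons went from 6 and 2 positions to 1 and 0, a ratio of 0.129 (0.00292 to 0.966). The last exon had 7 and 2 against 12 and 6. Introns held more positions than exons, with 41 and 50 against 45 and 61.

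Pax5, the factor that commits cells to the B lineage, was the member with the fewest positions left after MS-275 beside Pax4. Its values were 0.00083 and 0.0035 with solvent and 0.00075 and 0.00084 with MS-275, again too low for the test. On its exons (chr4:44544017-44724318, minus strand) lay 11 and 1 positions with solvent and 3 and 2 with MS-275, a ratio of 0.432 (0.119 to 1.32). All 9 coding positions were from solvent libraries (8 and 1), at least 2.90-fold fewer with MS-275 when that group is set at 3 positions. The introns held 33 and 13 positions against 13 and 13. Just beyond its 3′ end lies the processed transcript Gm19980, where 84 and 49 positions with solvent stood against 22 and 34 with MS-275 (limma-voom log2 fold change -1.30, adjusted p 0.000945 with the block and 0.0665 without it).

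Pax4, needed for the insulin-producing cells of the pancreas, was listed at 0 in all 4 libraries. Its exons (chr6:28392334-28399353, minus strand) held 0 positions in each library, which allows up to 3 positions per library. The neighbouring sequence was not silent. In the 5 kb after its 3′ end, exons of other genes left out, 1 and 0 positions with solvent stood against 26 and 13 with MS-275, a ratio of 40.4 (6.84 to 1636). The next gene on that side, Fscn3, which encodes a testis form of fascin, was also listed at 0 with solvent and at 0.0159 and 0.0136 with MS-275, with 0 and 0 against 23 and 24 exon positions. Fscn3 entered the test through the MS-275 libraries alone, so no p is given for it.

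Pax6, the regulator of eye, forebrain and islet development, had the highest mean value of the family over the 4 libraries. Its values were 0.0421 and 0.0283 with solvent and 0.0371 and 0.0259 with MS-275. Each was slightly lower with MS-275 within its pair, and the groups overlapped. The difference of -0.14 ± 0.29 (SE, log2 scale) had an adjusted p of 0.770 with the block and 0.964 without it, and was not detectable with these libraries.

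Most of the Pax6 positions were on sequence that Pax6 shares with another gene. Its last exon in GENCODE M1 (chr2:105536427-105543317) spans the last exon of Elp4 (chr2:105537477-105543018), a subunit of the Elongator complex on the opposite strand. Of the Pax6 exon positions (414 and 278 with solvent, 280 and 281 with MS-275), 240 and 258 and then 209 and 255 lay in the shared 5542 bases, or 58.0%, 92.8%, 74.6% and 90.7%. Between 76.9% and 85.4% of these were in the last 2000 bases of that stretch, where the Elp4 exon begins. The density over the whole shared stretch was 37.7 to 46.6 positions per kb, and on the other exons of Elp4 it was 85.6 to 130. On the coding exons of Pax6 it was 40.4 and 4.49 with solvent and 11.2 and 8.41 with MS-275. The last 2000 bases of the stretch held 205 and 199 positions with solvent and 174 and 196 with MS-275. The other Elp4 exons held 188 and 179, then 127 and 193. The alignments were counted without strand, so a single position on these bases cannot be assigned to either gene. The share of each gene was not tested. Elp4 itself had a log2 fold change of -0.08 with an adjusted p of 0.833 with the block.

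**Figure D2:**
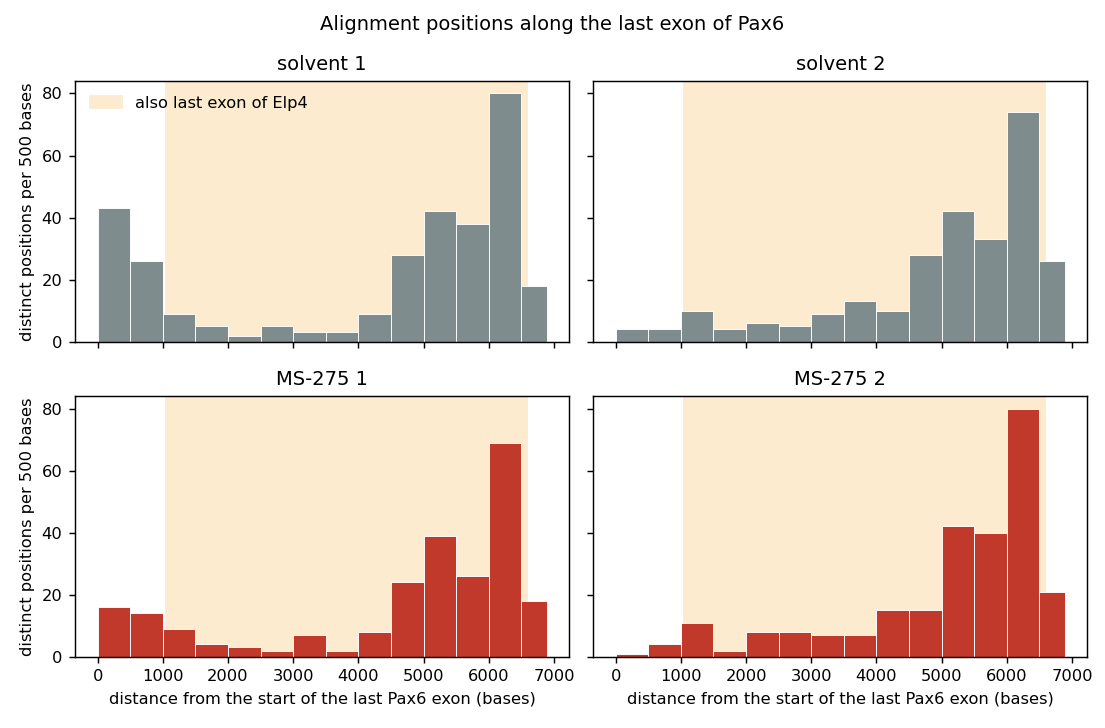
Distinct alignment positions per 500 bases (vertical axis) along the last exon of Pax6, by distance from its start (horizontal axis, bases), in each library; shading marks the stretch that is also the last exon of Elp4. Positions pile up at the far end of the shaded stretch in all 4 libraries, while the first 1000 bases hold 43 and 26 per bin in solvent replicate 1 and 4 and 4 in solvent replicate 2.

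Outside the shared stretch the solvent libraries disagreed on Pax6. Its own exon parts held 174 and 20 positions with solvent and 71 and 26 with MS-275. Solvent replicate 1 thus had over 8 times the positions of solvent replicate 2 at nearly the same number of distinct positions in the library. The coding exons repeated this, with 72 and 8 against 20 and 15, and so did the introns, with 34 and 1 against 13 and 3. Within pairs the ratio of MS-275 to solvent was 0.491 for replicate 1 and 1.17 for replicate 2, so the pairs went in opposite directions. The fit over exon parts of 1 gene with the block gave a log2 fold change of -0.86 ± 0.30 and an adjusted p of 0.0248, beside 21% of genes called lower, and without the block the adjusted p was 0.696. The pair of replicate 2 went the other way. Per kb of coding exon and 1000000 positions in the library, Pax6 had 3.68 positions in solvent replicate 1 and 0.459 in solvent replicate 2, and Pax8 had 0.832 and 0.466. Over all exon parts of 1 gene Pax6 had 1.11 and 0.143, and Pax8 0.609 and 0.870.

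**Figure D3:**
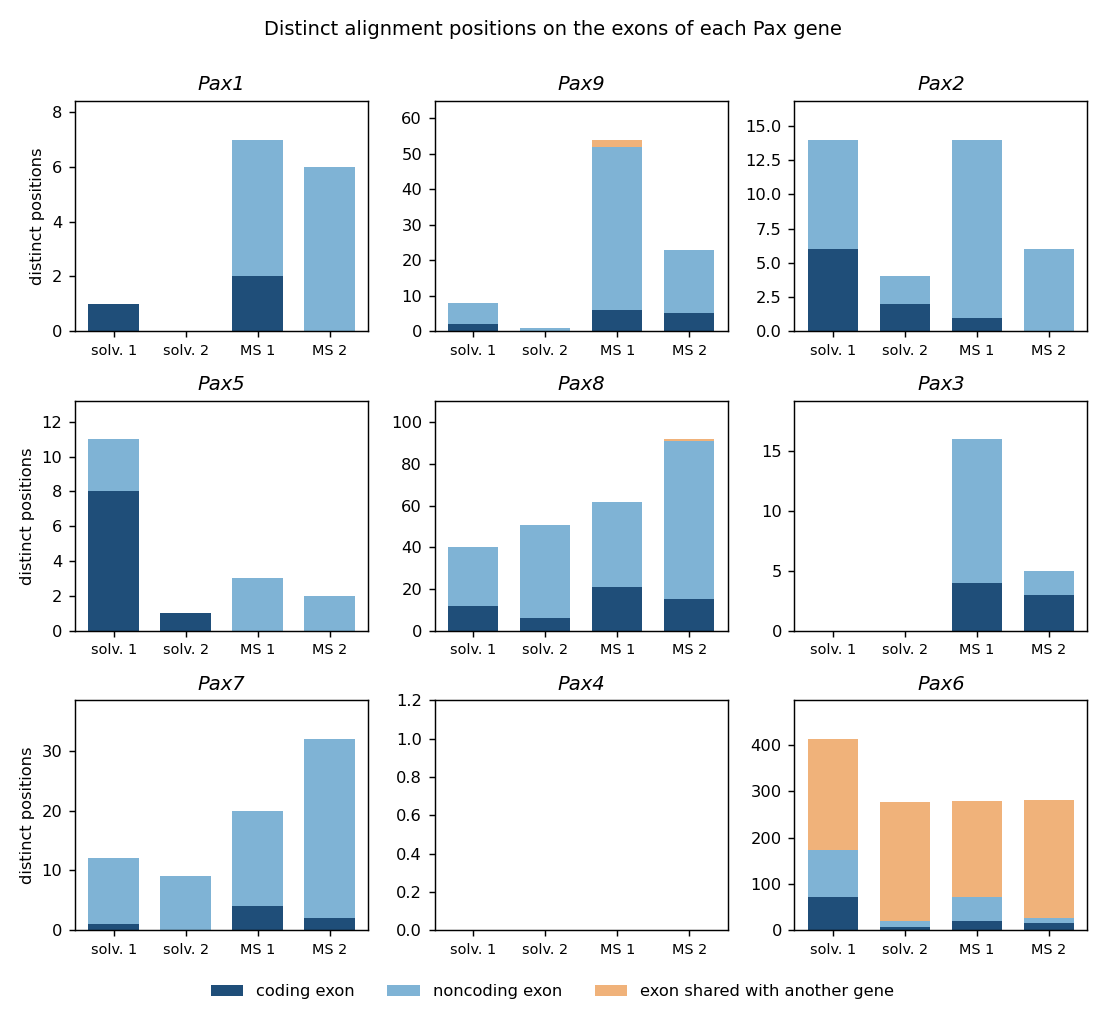
Distinct alignment positions (vertical axis, a linear scale of its own in each panel) on the exons of each Pax gene in each library, split into coding exon, noncoding exon and exon shared with another gene. Noncoding exon makes up most of the positions of Pax9, Pax7 and Pax8, the shared stretch most of those of Pax6, and Pax4 has none.

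The direction of Pax9 was the same in each of the fits tried. With the block its log2 fold change ranged from 0.43 (pseudocount 0.02) to 3.08 (distinct positions). It passed the threshold in 7 of 8 such fits and in 0 of 9 without a block. All 7 used a filter that Pax9 met through the MS-275 libraries alone, so it could be called there only as higher. In the blocked fit with no filter it did not pass (limma adjusted p 0.259). Pax7 and Pax8 were higher in all blocked fits too, but after quantile normalization their log2 fold changes were 0.15 and 0.12, with adjusted p of 0.671 and 0.808 with the block. The same normalization took Pax1 to 0.07 and Pax3 to 0.28, with adjusted p of 0.804 and 0.300 with the block. Over all 9 genes the median log2 fold change was 0.36, and over all listed genes 0.06. In the tested set the median of all genes moved from 0.20 to -0.01 with median-ratio scaling and to -0.03 with quantile normalization, and the value-based differences above include this shift. Once it was taken out, Pax6 had -0.38 by median ratios and -0.53 by quantiles, with adjusted p of 0.358 and 0.213 with the block.

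**Figure D4:**
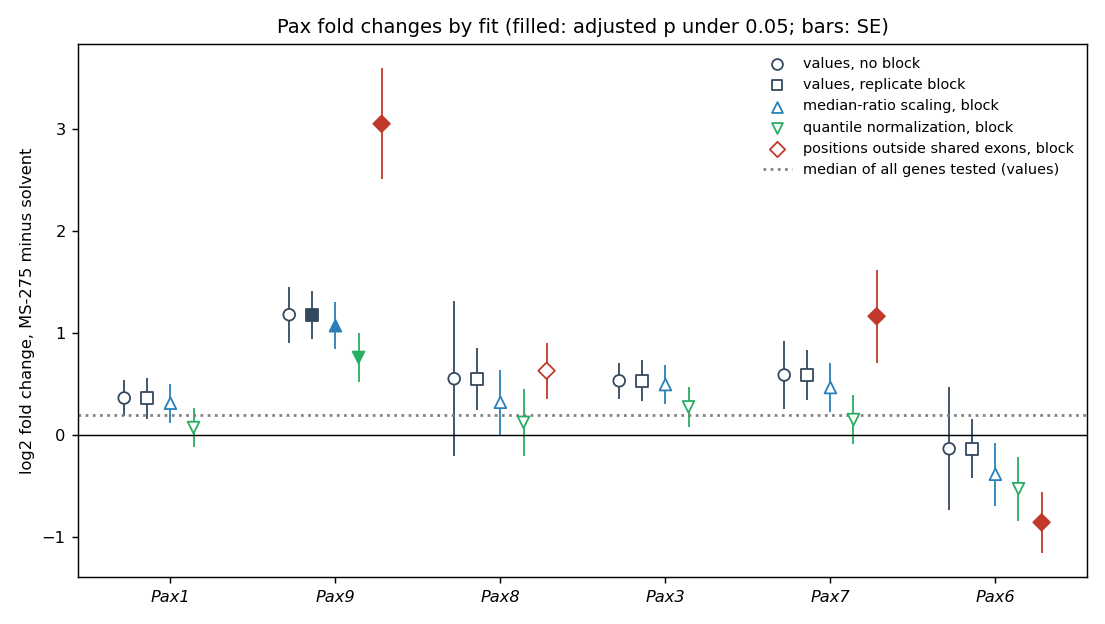
Log2 fold change of MS-275 over solvent (vertical axis) for the 6 Pax genes tested, by fit; bars are SE, filled symbols have an adjusted p under 0.05, and the dotted line is the median of all genes tested (0.20). Pax9 is filled in each blocked fit shown, Pax7 and Pax6 are filled on distinct positions alone, and Pax1 and Pax3 have too few positions for a red symbol. Pax9 entered the fits shown through the MS-275 libraries alone.

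Fibroblast and neural markers were measured alongside the Pax genes. Without a block 0 of the fibroblast, neural progenitor and pluripotency markers passed in limma, and with it 21% of all genes passed as higher and 6.46% as lower. Of the 10 fibroblast (feeder) markers 6 rose with the block, led by Col1a1 (log2 fold change 2.41) and Fbn1 (1.37), and 0 fell. The fibroblast values summed to 0.310 and 0.272 with solvent and to 0.610 and 0.644 with MS-275, none at 0 in any library. Thy1, the most abundant of them, rose from 0.135 and 0.102 to 0.227 and 0.224, and Col3a1 was at 0.00992 and 0.0156 against 0.00692 and 0.00755. Among 7 tested neural progenitor markers, Nes (2.29), Fabp7 (1.66) and Sox3 rose and Sox1 (-1.16) fell, and Msi1, the most abundant, did not pass (-0.60). Their sums were 0.121 and 0.176 with solvent and 0.193 and 0.238 with MS-275. Of 10 pluripotency markers 4 fell, with Fgf4 (-1.56) and Utf1 (-1.45) most, and 0 rose. After median-ratio scaling with the block, 3376 of all 20336 genes tested were higher and 2861 lower. Of the fibroblast markers 5 were higher and 1 lower. For the neural progenitor markers these counts were 3 and 2, and for the pluripotency markers 0 and 6. Dppa5a, the most abundant pluripotency marker, was at 0.293 and 5.51 with solvent and 0.293 and 4.05 with MS-275, so it differed more between replicates than between conditions. The part of these other cells or states in the Pax values was not tested.

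The genes that act with Pax proteins changed with the block in both directions. Without a block 0 of the 74 tested passed in limma, and with it 22 rose and 6 fell, or 29.7% and 8.11%, beside 21% and 6.46% of all genes tested in that fit. Of the 22, 4 entered the test through the MS-275 libraries alone and so had to be higher there. The Eya and Dach genes and their partners such as Six2, whose products work in a network with Pax2, Pax3 and Pax6, had 2 of 12 higher (Eya2, log2 fold change 0.99, and Six2, 0.68, which was under 0.001 in both solvent libraries and is 1 of those 4) and 1 lower (Six4, -0.67), with Eya3 the most abundant and not past the threshold (-0.12). Their median was 0.15, and it turned to -0.02 with median-ratio scaling and -0.24 with quantile normalization, while the medians of the other Pax lists kept their sign. Among 7 cofactors Tle3 (-1.43) and Tle4 (-0.60, adjusted p 0.0499), Groucho-family corepressors that Pax proteins can recruit, fell and 0 rose. Paxbp1 had the highest mean (-0.12, adjusted p 0.742), and the median of this list was -0.12.

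Companions of Pax1 and Pax9 had 2 of 7 tested genes higher and 0 lower, where 21% and 6.46% of all genes were, with a median of 0.62. Msx1, the tooth and limb factor that works with Pax9, rose from 0 and 0.00195 to 0.0195 and 0.0259 (adjusted p 4.13e-05). Bmp4 had the highest mean of this list and a log2 fold change of -0.22 (0.562). These are limma p-values with the replicate block, and Msx1 and Bmp4 had 0.0612 and 0.929 without it.

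Of the companions of Pax2 and Pax8, 8 of 15 tested genes rose with the block and 1 fell, against 21% and 6.46% of all genes, and the list's median log2 fold change was 0.84, beside 0.20 for all genes. En2, a midbrain-hindbrain factor, went from 0.0211 and 0.0158 to 0.154 and 0.156 (log2 fold change 2.78). Ret, the receptor for kidney bud outgrowth, went from 0.00624 and 0.00205 to 0.0863 and 0.0289 (2.64). Sall1, a kidney factor that ESCs also express and the most abundant of the list, went from 0.428 and 0.274 to 0.110 and 0.0210 (-2.67). The thyroid gene Slc5a5, the iodide transporter that Pax8 is known to activate, had 2.30, while Tg reached the minimum value in 1 library alone (0.00219, MS-275 replicate 1) and was not tested, and Nkx2-1 was listed at 0.

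Among companions of Pax3 and Pax7, 3 of 11 rose and 2 fell with the block (all genes 21% and 6.46%), with a median of 0.43. Snai2, a neural crest factor, had a log2 fold change of 2.09 and Sox10, another crest factor, 1.12. Foxd3, which is active in both crest and ESCs, fell by 1.86 on the log2 scale, and Mitf, the melanocyte factor and the most abundant of the list, fell by 1.35. Of the muscle factors Myod1, listed at 0 with solvent and so tested through the MS-275 libraries alone, had 0.00296 and 0.00323 with MS-275, and Myog had a log2 fold change of 0.27 (adjusted p 0.398).

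Companions of Pax4 and Pax6 had 7 of 12 higher and 0 lower with the block (all genes 21% and 6.46%), with a median of 0.74. Of the 7, 2 entered the test through the MS-275 libraries alone. With median-ratio scaling and the block 7 were higher and 1 lower, beside 3376 and 2861 of all 20336 genes tested. The islet factors Mafa (2.34, the highest mean of the list) and Isl1 (1.90) rose, as did the lens gene Cryaa (1.22). The islet factors Neurog3 and Nkx2-2 had log2 fold changes of -0.61 and 0.24 and did not pass (adjusted p 0.137 and 0.444 with the block). Ins1 and Gcg were listed at 0, as Pax4 was. Of the Pax5 companions, the B cell genes, 0 of 10 passed in either direction with the block (median -0.12), and Tcf3, a factor used in many cell types, had the highest mean and a log2 fold change of -0.05.

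**Figure D5:**
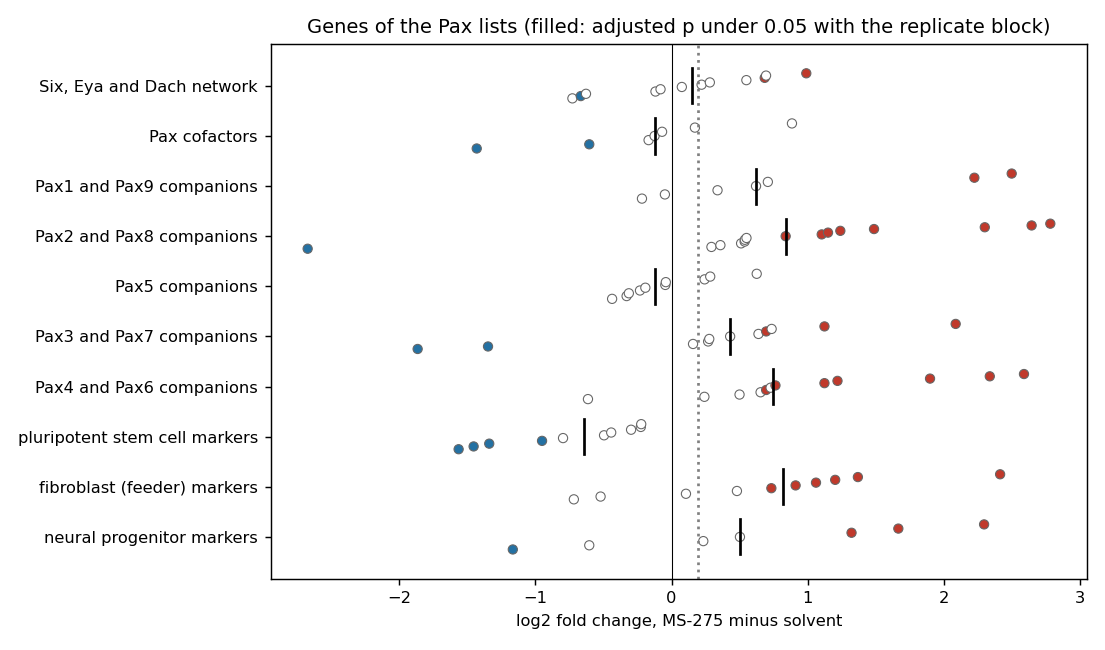
Log2 fold change of MS-275 over solvent (horizontal axis) for each tested gene of the Pax lists and the marker lists; filled red or blue points rose or fell with an adjusted p under 0.05 in limma with the replicate block, black bars are list medians and the dotted line is the median of all genes tested (0.20). The Pax2 and Pax8 companions hold 8 red points and 1 blue point, and the Pax5 companions hold no filled point.

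Around the Pax loci, some of the nearest annotated genes moved and others did not. Limma-voom on distinct positions with the block called 24.1% of all genes higher and 21.4% lower. Sgpp2, 113211 bases from Pax3, rose from 37 and 50 to 112 and 206 positions (limma-voom log2 fold change 1.73, adjusted p 1.73e-07 with the block and 0.0198 without it). Tas1r2, 66781 bases from Pax7, went from 2 and 5 to 15 and 20 positions. It entered the fit through the MS-275 libraries alone, so no p is given for it. Psd4, 11368 bases from Pax8, on the contrary went from 185 and 189 to 55 and 152 positions (-1.03, 0.000143 with the block, 0.0851 without), the opposite direction to Pax8. Snd1, 25785 bases from Pax4 on its other side, had a log2 fold change of 0.33 on positions (0.0180 with the block, 0.158 without). Gm12463, 40830 bases from Pax5, fell by 0.67 (0.0317 with the block, 0.188 without). Gm17704, 60773 bases from Pax2, had -1.16 (0.0662 with the block). The other nearest genes, AI646519 and Gm14109 (Pax1), Gm5246 (Pax2), a U1 gene (Pax3), Pax6os1 (Pax6), Gm1667 (Pax7), Gm13415 (Pax8), and Gm15524 and Slc25a21 (Pax9), had at most 5 positions in any library.

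Over the 4 libraries the genes most like Pax6 and Pax9 were sought by Euclidean distance between log2(value + 0.005) profiles centred on their means, among the 20336 genes tested. The nearest to Pax6 were Coq6 (distance 0.0187), Serpina3m (0.0296) and Gm10277 (0.0352). Serpina3m (0 to 0.00246) and Gm10277 (0.00044 to 0.00312) were under the added 0.005 in each library, which flattens their profiles. The nearest to Pax9 were Dmbx1 (0.0848), 4930565B19Rik (0.102) and Runx1 (0.102). With 4 libraries such profiles are short, and Runx1 for instance had 0.00406 and 0.00575 with solvent and 0.0152 and 0.0172 with MS-275, above the level of Pax9 throughout.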

How the data were processed

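Total RNA of 4 TBV2 ESC libraries was poly(A)-selected and sequenced by the authors. Reads were mapped to mm9 and turned into normalized signal values per gene with Genomatix. As deposited by the authors, the signal lists hold 28250 genes, and the alignments are 35 bases long with a score column that was not read. The authors' shorter tables and their ratio tables, which hold the comparisons of the study, were not used. Depth was 9785619 to 23467935 alignments per library. The aligner and its version are not given in the sources used here.

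The 20336 genes that reached 0.001 in 2 or more libraries were fitted on log2(value + 0.005) with limma 3.58.1 (lmFit, eBayes with trend; R 4.3.3), and p-values were Benjamini-Hochberg adjusted over all genes tested. Positive values mean higher with MS-275. Fits with a replicate block are given beside those without it. The pairing comes from the authors' headers, and the deviations of same-numbered libraries from their group means correlated at 0.764 across 20336 genes. Distinct positions (chromosome, start and strand) were counted by midpoint on GENCODE M1 exons of mm9, irrespective of strand, and fitted with limma-voom where at least 10 occurred in at least 2 libraries. Intervals are 95% exact conditional intervals on group totals, and a group at 0 was set at 3 positions. Of 117 list entries 112 matched as written, 4 through the gene identifier and 1 was not listed. Named genes were all 9 Pax genes, up to 2 with the largest change per list and direction with the block, the most abundant of each list, nearest neighbours and the 3 most similar profiles, except that some list genes this rule names are not reported here. Sox3, Slc5a5, Tg, Nkx2-1, Myod1, Myog, Isl1, Cryaa, Ins1, Gcg, Neurog3, Nkx2-2 and Col3a1 were named in addition after their values were seen. The members and lists were chosen with earlier results of these data known. The fits were tested on simulated data. Python 3.11.15 with scipy 1.17.1 was used for counting and intervals.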

Additional observations from a re-analysis of the deposited data

How the results depend on the processing

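Of 120 values of single Pax genes under an alternative, 105 kept their direction and their side of the threshold, 11 passed it newly (7 for Pax9, 2 for Pax7, 1 each for Pax3 and Pax6, all with the replicate block) and 4 turned. Leaving out each library gave Pax6 -0.39 to 0.12 (above 0 without solvent replicate 1, and at 0.089 without MS-275 replicate 2) and Pax8 -0.21 to 1.31 (below 0 without MS-275 replicate 1, and at -0.10 without solvent replicate 2). Pax7 ranged from 0.19 to 0.99. In such a fit the lone library is assumed to vary like the other group, and the replicate numbers are unbalanced. Alternatives on exon parts of 1 gene, on coding parts and the fit of all genes with the block were chosen after seeing the data.

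The number of Pax genes called higher was 0 without a block. With the replicate block it was 1, also after a pseudocount of 0.02, quantile normalization and median-ratio scaling, and 2 with a pseudocount of 0.001 (Pax9, Pax3), on distinct positions (Pax9, Pax7) and on exon parts of 1 gene (Pax9, Pax7, with 1 lower, Pax6). Of all 20336 genes tested, the blocked fit called 4277 higher (21%), or 4216 and 3790 with pseudocounts of 0.001 and 0.02. It called 2936 higher after quantile normalization and 3376 after median-ratio scaling. On distinct positions with the block 24.1% of all genes were called higher and 21.4% lower, and on exon parts of 1 gene 23.8% and 21%. Pax9 and Pax3 entered the fits that called them through the MS-275 libraries alone. The number called higher was 0 with a mean value of at least 0.01 and on coding parts, where Pax6 and Pax8 alone were tested. It was also 0 with no filter and the block. Leaving out each library gave 0 to 0 higher and 0 to 0 lower. The fold rule gave 2 genes higher, 0 with a floor of 0.01, 4 at 1.5-fold, 1 at 3-fold and 1 after median-ratio scaling; 2 were lower in pair 2 alone (Pax2, Pax5). The median log2 fold change of the tested Pax genes, 3 of which entered through MS-275 alone, was 0.54. It was 1.13 and 0.19 with pseudocounts of 0.001 and 0.02, 0.36 with no filter, 0.21 with a mean value of at least 0.01, 0.14 after quantile normalization and 0.39 after median-ratio scaling, with or without the block, and 0.22 to 0.73 without 1 library. In the Pax pathway lists 22 genes were higher and 6 lower with the block, against 0 and 0 without it.

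Over all genes, 1 was higher and 0 lower. With the block 4277 and 1314 were, 4216 and 1220 with a pseudocount of 0.001, 3790 and 1158 with 0.02, 2751 and 1091 where the mean value was 0.01 or more, 2936 and 2961 after quantile normalization, and 3376 and 2861 after median-ratio scaling. Without it, 466 and 65 were with a mean value of at least 0.01, and 0 higher with either pseudocount, no filter (also with the block), quantile normalization, median-ratio scaling or eBayes without a trend. On distinct positions 2046 and 1256 were called without the block and 4321 and 3836 with it. Without 1 library 0 to 160 were higher and 0 to 29 lower. The cause of these changes was not tested. Values of the low Pax genes rest on 0 to 54 positions per library, so small changes of Pax1, Pax2, Pax4 and Pax5 were not detectable at this depth.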
